A study of Mus musculus with 9 samples.

Results

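Myoc (ENSMUSG00000026697), the gene of myocilin, is described here across cortex RNA of 3 inbred mouse strains. It is 1 of 54532 genes in the deposited table and was chosen by its measured FPKM in the same mice, high in B6, lower in C3H and near 0 in WSB, so its own levels are a description and were given no test. The groups were 3 male mice each of B6 (C57BL6/J), C3H (C3H/HeJ) and WSB (WSB/EiJ), aged 8 to 12 weeks, and brain cortex was taken from every mouse. No treatment is given for any group, and the mice of a group share 1 inbred genotype. The study used these strains to look for genes that change the size of a stroke, and this tissue is the RNA part of that work. Levels are FPKM, fragments per kilobase of gene length, which the authors had already scaled for library size.

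Myocilin is a secreted glycoprotein with a coiled-coil region and an olfactomedin domain, a fold shared by a family of secreted and membrane proteins. It is best known from the trabecular meshwork of the eye, where glucocorticoids induce it and where mutant forms that stay in the endoplasmic reticulum cause an inherited glaucoma. In brain, Myoc RNA is known from astrocytes at the brain surface. A cortex sample holds these cells together with neurons, oligodendrocytes, vessels and pieces of meninges.

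In GRCm38, Myoc lies on the plus strand of chromosome 1 from 162639155 to 162649693. GENCODE gives it 1 transcript with 3 exons, 2074 exonic bases and 490 codons. Exon 1 runs from 162639155 to 162639825 and holds the 5′ UTR up to 162639263, exon 2 runs from 162647444 to 162647569, and exon 3 runs from 162648417 to 162649693 with the 3′ UTR from 162649199. Myocos (ENSMUSG00000091060) lies on the opposite strand from 162647193 to 162658219, so the spans overlap over 2501 bases. The exons of the pair share 93 bases, from 162647444 to 162647536 in exon 2 of Myoc. The strand setting of the read counting was not given in the sources used here, so reads from those shared bases cannot be assigned to one gene or the other.

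The reference sequence of the 250 bases just before the RefSeq start of Myoc (GRCm38.p6, chr1:162638900-162639149, plus strand, 5′ to 3′) is shown because the strains differed in the level of this transcript. Capitals mark the motif matches found by a search of both strands.
Myoc promoter: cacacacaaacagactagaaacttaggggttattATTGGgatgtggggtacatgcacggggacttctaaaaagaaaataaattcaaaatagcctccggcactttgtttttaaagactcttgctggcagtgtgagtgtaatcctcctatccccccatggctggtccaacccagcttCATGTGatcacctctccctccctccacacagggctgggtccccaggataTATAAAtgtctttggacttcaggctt
From left to right these are a CCAAT box on the minus strand (read as ATTGG, 216 bases before the start), an E-box (CANNTG, 75 bases before) and a TATA box (TATAAA, 26 bases before), and none overlaps another. Among 32851 RefSeq promoters cut to the same length, 12.4% held TATAAA, 33.8% held CCAAT and 66.2% held CANNTG. The letters TGANTCA of an AP-1 site, present in 6.75% of promoters, and AGAACA of a glucocorticoid receptor hexamer, present in 16.1%, are not in this window. The sequence is that of the reference strain, and the C3H and WSB sequences were not analysed here.

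Reads on genes totalled 17651630 to 21562429 per B6 mouse, 19042306 to 19433751 per C3H mouse and 16317439 to 17784118 per WSB mouse. C3H replicate 2 stood apart in the tests: without it 2301 genes of the whole table were called for C3H minus B6 and 2002 for WSB minus C3H, against 956 and 1182 with it. The 7 cortical neuron markers, among them Snap25 and Slc17a7, summed to 693 to 751 FPKM in B6 mice, 698 to 797 in C3H mice and 681 to 766 in WSB mice, and limma called none of the 7 in any comparison. At an unadjusted p under 0.05 the counts were 0, 0 and 4 for C3H minus B6, WSB minus B6 and WSB minus C3H, where 24.1%, 20.4% and 23.8% of all genes tested were under it, and voom called 0, 0 and 1. In bulk tissue such as this, fewer cells of a type and less RNA per cell cannot be told apart.

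Myoc stood in 3 separate levels. In B6 it reached 13.1 FPKM (488 reads) in replicate 1, 20.0 (837 reads) in replicate 2 and 18.5 (819 reads) in replicate 3. In C3H it was 1.35 FPKM (52 reads), 2.14 (86 reads) and 2.41 (97 reads). In WSB it was 0.116 FPKM (4 reads), 0.0278 (1 read) and 0.0528 (2 reads). Every B6 mouse lay above every C3H mouse, and every C3H mouse above every WSB mouse. In WSB the level was at the limit of detection, since 3 reads correspond to 0.0679 to 0.0870 FPKM across the 9 libraries.

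**Figure D1:**
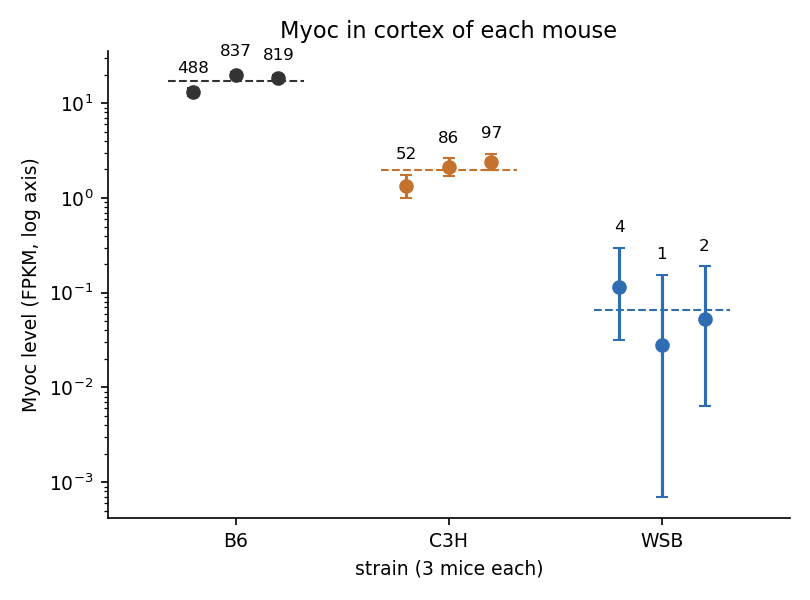
Myoc level in FPKM (log axis) for each of 3 mice in B6, C3H and WSB, with the number of reads above each point, 95% exact Poisson intervals as bars (counting error only) and the strain mean as a dashed line. The strains form 3 steps that do not overlap, and the WSB mice rest on 4, 1 and 2 reads.

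The B6 mean was 17.2 ± 3.61 FPKM (SD, n = 3). That of C3H was 1.97 ± 0.55 FPKM (SD, n = 3), and that of WSB was 0.0655 ± 0.0454 FPKM (SD, n = 3). The mean level in B6 was 8.76-fold that in C3H and 263-fold that in WSB, and C3H stood 30.0-fold above WSB. The smallest ratio between a single B6 mouse and a single C3H mouse was 5.45 and the largest 14.8. For B6 and WSB the ratios ran from 113 to 718, and for C3H and WSB from 11.6 to 86.6. Over the 3 mice of a strain Myoc had 2144 reads in B6, 235 in C3H and 7 in WSB. Ratios of these depth-scaled sums were 8.81 (95% exact interval 7.70 to 10.1) for B6 to C3H, 269 (130 to 670) for B6 to WSB and 30.5 (14.6 to 76.8) for C3H to WSB. These intervals cover counting error alone, and reads from amplified libraries are not independent molecules. On the log2(FPKM + 0.1) scale, where low levels are compressed, the difference was -3.08 for C3H minus B6, -6.72 for WSB minus B6 and -3.64 for WSB minus C3H.

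Among all genes the level of Myoc was well up the range in B6, where 92.9% to 95.1% of the 54532 genes were lower. In C3H 78.2% to 81.4% were lower and in WSB 58.3% to 64.0%. Of 20768 genes that averaged at least 0.1 FPKM over the 9 mice, 133 (0.64%) had all B6 mice above all C3H mice and all C3H mice above all WSB mice. Of these 133, Myoc stepped down by at least 8-fold in mean level at both steps. Gm43305, a gene model with a mean of 1.078 FPKM in B6, also met this limit, but with 2, 7 and 1 reads in the C3H mice and 0 reads in every WSB mouse, so no ratio can be given for its second step. Of 4841 genes that averaged at least 10 FPKM in B6, 3 had a mean under 0.1 FPKM in WSB. These were Myoc, Ly6c1, a surface protein of vessel and blood cells, and mt-Tg, a mitochondrial transfer RNA gene. Of the same 4841, mt-Tg was the only one under 0.1 FPKM in C3H. These genes were named after their values were seen, and the 8-fold limit lies just under the smaller step of Myoc, 8.76-fold. That Myoc meets this limit is therefore a description only.

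Myocos, the antisense neighbour, was near the limit of detection. It had 7 reads (0.403 FPKM), 11 reads (0.562 FPKM) and 0 reads in the 3 B6 mice, and 0 reads in every C3H and WSB mouse. B6 replicate 3, with 819 Myoc reads, had none. Its log2 difference was -1.69 in both comparisons with B6, with limma adjusted p = 0.218 for C3H and 0.262 for WSB, so neither passed the threshold of 0.05. Strand handling is not given, so any of these few reads in the 93 shared exon bases cannot be told apart from Myoc reads. How many of them lie there is not known.

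The other genes of the locus were tested as context, each strain pair by limma on log2(FPKM + 0.1) in the 6 mice compared, with Benjamini-Hochberg adjustment over all genes tested. All 3 comparisons share mice with one another. Within 1 Mb of Myoc lie 43 other annotated genes, 22 upstream, 20 downstream and Myocos across it. Of these, 14 were listed at 0 in every mouse, 16 were above 0 but too low to test, and 13 were tested in at least one comparison. For C3H minus B6, none of 13 tested neighbours was called, against 956 of 20602 genes (4.64%) in the whole table, and voom called 0. An unadjusted p under 0.05 was found for 4 of the 13, beside 24.1% of all genes. For WSB minus B6, 1 of 13 was called, against 1224 of 20746 (5.9%). For WSB minus C3H, 2 of 12 were called, against 1182 of 20607 (5.74%). The median log2 difference of the neighbours was -0.07, -0.11 and 0.01 in this order.

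The called neighbours, Fmo1 and Fmo2, are flavin-containing monooxygenases, enzymes that oxidise nitrogen and sulfur atoms of foreign compounds. They lie 179868 and 224624 bases downstream of Myoc. Fmo1 was 1.57, 1.80 and 1.51 FPKM in the B6 mice, 1.72, 1.80 and 1.35 in the C3H mice and 0.982, 0.889 and 0.799 in the WSB mice. Fmo1 in WSB lay below every mouse of the other strains. Of all genes tested, 26.0% had no overlap between WSB and B6 mice and 28.6% had none between WSB and C3H mice. The fall of Fmo1 was -0.80 ± 0.16 (log2, SE; limma adjusted p = 0.0304) against B6 and -0.79 ± 0.18 (SE; limma adjusted p = 0.0479) against C3H. Fmo2 was 0.309, 0.247 and 0.234 FPKM in B6, 0.335, 0.488 and 0.386 in C3H and 0.0643, 0.0824 and 0.0683 in WSB. It fell in WSB against C3H by 1.54 ± 0.33 (SE; limma adjusted p = 0.0394). At these low levels the size depends on the pseudocount, with -0.39 at a pseudocount of 1, -2.33 at 0.01 and -2.40 with voom. Against B6 its difference of -1.08 did not pass (limma adjusted p = 0.134). These calls were lost when any 1 of the 6 mice was left out, with adjusted p from 0.0566 to 0.128 for Fmo1 against B6, 0.072 to 0.171 for Fmo1 against C3H and 0.0765 to 0.142 for Fmo2. Without B6 replicate 3 or without C3H replicate 2, 1 neighbour was called for C3H minus B6.

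**Figure D2:**
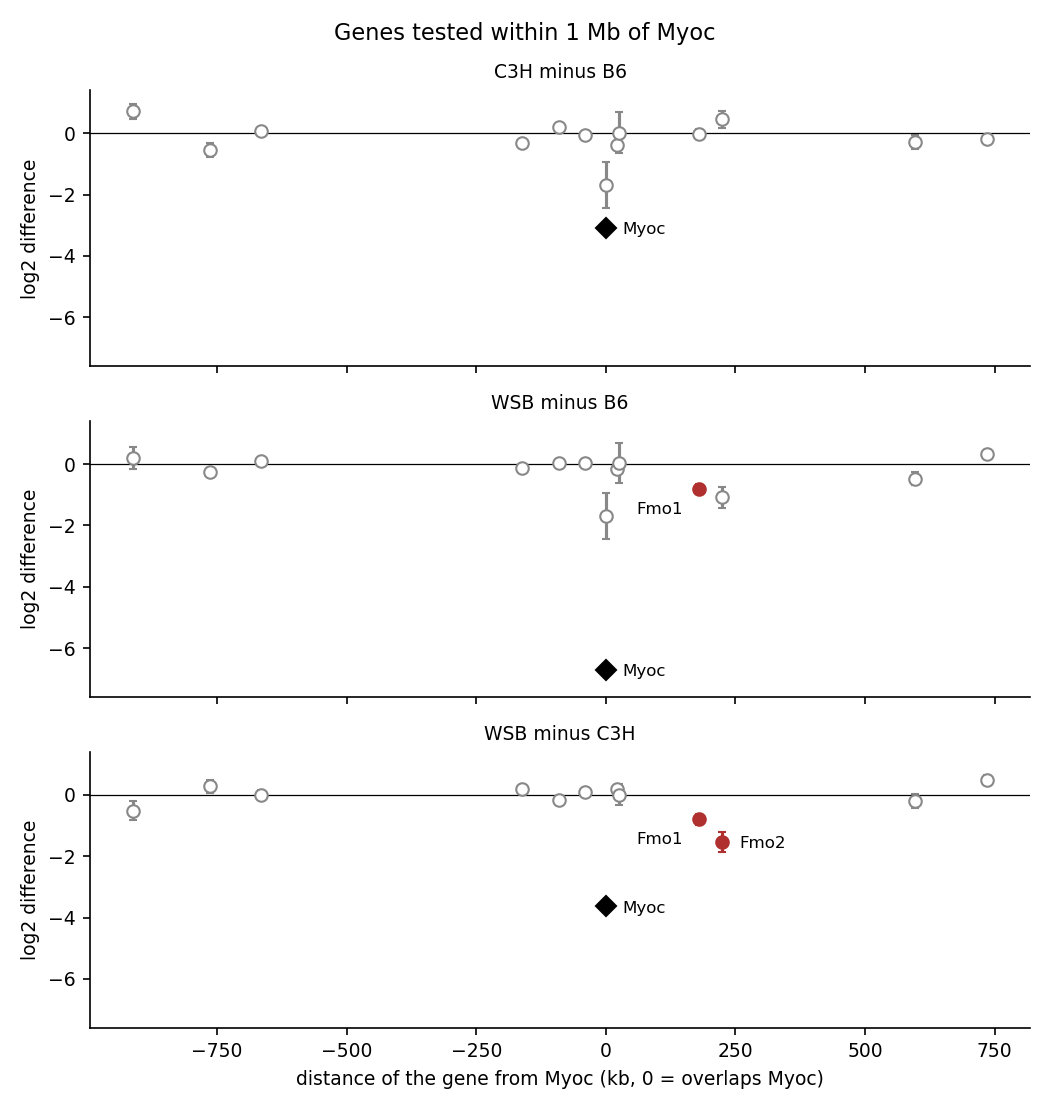
Log2 difference on the FPKM + 0.1 scale (± SE) of each gene tested within 1 Mb of Myoc against its distance from Myoc in kb, in 3 panels for C3H minus B6, WSB minus B6 and WSB minus C3H. Myoc (diamond, untested) lies at -3.08, -6.72 and -3.64, the called Fmo1 and Fmo2 are filled, and most other neighbours lie near 0.

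The nearest tested genes on the upstream side were Vamp4, Mettl13, Dnm3, Pigc and Suco. Vamp4, a SNARE protein of the trans-Golgi network 40071 bases away, had mean levels of 20.2 FPKM in B6, 19.4 in C3H and 20.7 in WSB. Mettl13, a lysine methyltransferase of the translation factor eEF1A, had 1.81, 2.09 and 1.85 FPKM in the same order. Neither shows the steps of Myoc. Dnm3, a dynamin GTPase of neurons, had 4.91, 3.91 and 4.53 FPKM. Pigc, an enzyme of GPI anchor synthesis, had 2.37, 2.53 and 2.55 FPKM. Suco, a SUN-domain protein, had 3.63, 2.49 and 2.98 FPKM. None of these 5 passed the test in any comparison.

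On the downstream side the first tested gene was Prrc2c, a large RNA-binding protein gene 21032 bases from Myoc, with means of 6.78, 5.21 and 6.05 FPKM in B6, C3H and WSB. Gm27616, a predicted miRNA gene inside this region, varied from 2.23 to 16.8 FPKM among the B6 mice alone. Beyond the Fmo genes, Prrx1, a homeobox transcription factor gene, had 0.760, 0.608 and 0.519 FPKM, and Gorab, a Golgi protein gene, had 3.75, 3.35 and 4.77 FPKM. None of these 4 passed the test in any comparison.

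Within 5 Mb there were 234 other genes, and calls among them numbered 5 of 82 tested for C3H minus B6, 6 of 83 for WSB minus B6 and 8 of 80 for WSB minus C3H, beside the shares of the whole table given above. Gas5, a host gene of small nucleolar RNAs that was singled out after its values were seen, lies 1600616 bases upstream of Myoc and had means of 18.0 FPKM in B6, 3.29 in C3H and 4.18 in WSB. It fell by 2.42 (log2) in C3H and by 2.09 in WSB (limma adjusted p = 4.45e-05 and 0.000167), and both calls were kept without any 1 mouse. It had no further step down from C3H to WSB, where its difference was 0.33 (limma adjusted p = 0.284). The count for C3H minus B6 was 10 without C3H replicate 2 and 3 without B6 replicate 1 or C3H replicate 1. For WSB minus B6 it was 3 without B6 replicate 1. For WSB minus C3H it was 2 without C3H replicate 1, WSB replicate 1 or WSB replicate 2, 3 without C3H replicate 3 and 4 without WSB replicate 3.

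The other genes with an olfactomedin domain did not show the steps of Myoc. All 12 were tested, and 1 was called in each comparison, beside 4.64%, 5.9% and 5.74% of all genes. The same shares of all genes apply to the counts of every other list. Their median log2 difference was -0.12 for C3H minus B6, -0.06 for WSB minus B6 and 0.12 for WSB minus C3H, where the median of all genes tested was -0.004, 0.002 and 0.009. The called members were Olfml3 and Olfml1. Olfml3, a secreted matrix protein expressed by microglia in brain, was 3.44, 3.33 and 3.82 FPKM in the B6 mice, 1.74, 1.23 and 1.505 in the C3H mice and 4.75, 4.08 and 4.31 in the WSB mice. C3H was thus the lowest strain for Olfml3 and WSB the highest, with no overlap among the 3. Of all genes tested, 28.9%, 26.0% and 28.6% had no overlap in C3H minus B6, WSB minus B6 and WSB minus C3H. Olfml3 fell by 1.20 ± 0.15 (log2, SE; limma adjusted p = 0.00497) in C3H against B6 and rose by 1.503 ± 0.15 (SE; limma adjusted p = 0.00189) in WSB against C3H.

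Olfml1, a secreted olfactomedin-like protein, was 7.46, 5.73 and 6.38 FPKM in B6 and 9.24, 9.15 and 9.23 in WSB. It rose by 0.50 ± 0.11 (log2, SE; limma adjusted p = 0.0381) in WSB against B6. This call was kept without B6 replicate 1 and lost without any other of the 6 mice, with adjusted p up to 0.119. Both calls of Olfml3 were kept without any 1 mouse. Without B6 replicate 3 the list held 2 calls for C3H minus B6, and without C3H replicate 2 it held 2 for WSB minus C3H.

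The remaining members passed in no comparison. Olfm1, the most abundant and a secreted protein of neurons, had means of 357 FPKM in B6, 378 in C3H and 321 in WSB. Olfm2 had 42.3, 51.3 and 38.9 FPKM, Olfm3 had 4.87, 2.90 and 4.27, and Olfm4 had 0.471, 0.346 and 0.319. The latrophilins are adhesion receptors with an olfactomedin domain outside the cell. Adgrl1 had 63.4, 71.6 and 61.0 FPKM, Adgrl2 had 4.62, 3.67 and 4.39, and Adgrl3 had 2.61, 2.25 and 2.48. Olfml2a had 0.972, 0.776 and 0.919 FPKM, Olfml2b had 2.604, 3.82 and 3.002, and Gldn, gliomedin of peripheral nodes of Ranvier, had 0.256, 0.251 and 0.405. 

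**Figure D3:**
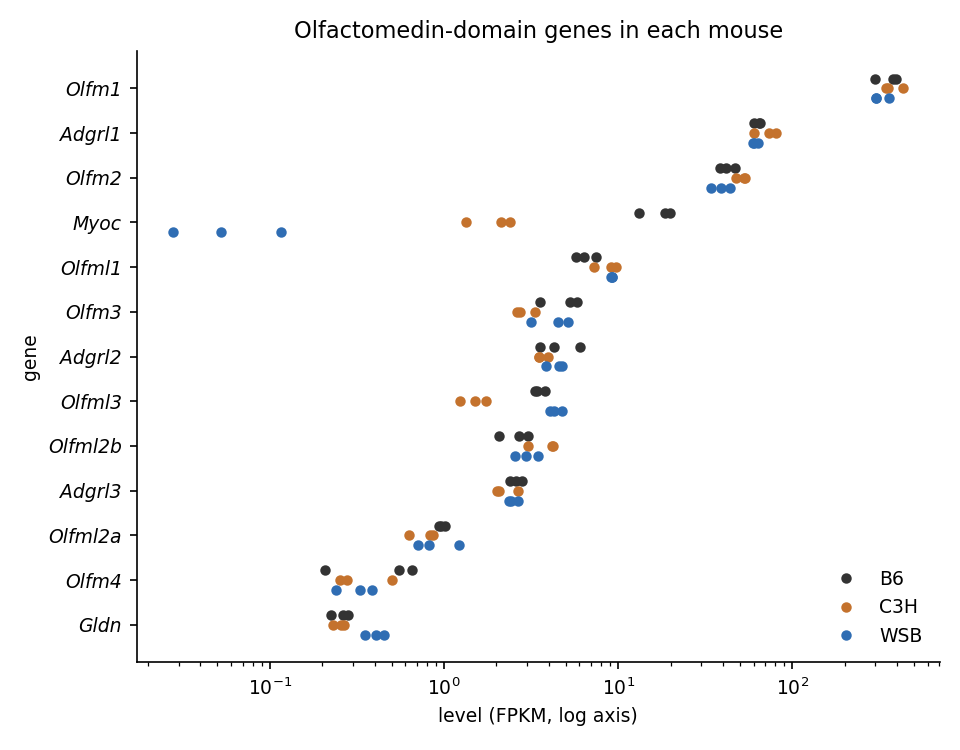
Level in FPKM (log axis) of Myoc and the 12 other olfactomedin-domain genes in each mouse, with B6, C3H and WSB as separate rows of points for each gene. Myoc runs from 20.0 FPKM in a B6 mouse down to 0.0278 in a WSB mouse, while the mice of the 3 strains lie close together for most other members.

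Genes reported to bind or work with myocilin were taken next, 19 in all and all tested. They include matrix and Wnt-pathway proteins, membrane proteins of myelin and axons, and chaperones of the endoplasmic reticulum. Calls were 1, 2 and 1 for C3H minus B6, WSB minus B6 and WSB minus C3H, again beside 4.64%, 5.9% and 5.74% of all genes. The median log2 differences of the list were 0.18, -0.03 and -0.12. Sfrp1, a secreted inhibitor of Wnt signalling, was 3.26, 2.20 and 2.40 FPKM in B6, 5.48, 5.04 and 5.21 in C3H and 5.20, 4.47 and 6.26 in WSB. Sfrp1 thus ran the other way from Myoc in B6, with its lowest level there. It rose by 0.99 ± 0.15 (log2, SE; limma adjusted p = 0.0126) in C3H and by 0.998 ± 0.18 (SE; limma adjusted p = 0.0212) in WSB.

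Flot1, a membrane raft protein, was 87.2, 72.2 and 74.8 FPKM in C3H and 49.1, 51.1 and 49.8 in WSB. It fell by 0.64 ± 0.09 (SE; limma adjusted p = 0.0071) in WSB against C3H. Fn1, fibronectin of the extracellular matrix, was 3.09, 3.94 and 3.14 FPKM in B6 and 2.41, 1.70 and 1.61 in WSB. Its fall in WSB against B6 was -0.81 ± 0.18 (SE; limma adjusted p = 0.0464). The most abundant members, Sparcl1, an astrocyte matrix protein, and Calr, a chaperone, passed in no comparison. Sparcl1 had means of 587, 597 and 623 FPKM and Calr 148, 175 and 158 in B6, C3H and WSB.

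The call of Flot1 was kept without any 1 mouse. That of Fn1 was kept only without WSB replicate 1, with adjusted p up to 0.155. For Sfrp1 the call in C3H was lost without B6 replicate 3, C3H replicate 1 or C3H replicate 3 (adjusted p up to 0.066), and in WSB it was kept only without B6 replicate 1 or WSB replicate 2 (up to 0.080). The list held 2 calls for C3H minus B6 without C3H replicate 2. For WSB minus C3H it held 2 without C3H replicate 2, WSB replicate 1 or WSB replicate 2.

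Because glucocorticoids induce Myoc in the eye, 16 genes known to respond to them were read beside it. In each comparison 15 were tested, and Lcn2 was too low. Calls were 1, 1 and 0, and the median log2 differences were 0.03, 0.08 and 0.09. For WSB minus C3H, 4 had an unadjusted p under 0.05 and voom called 0. Angptl4, a secreted inhibitor of lipoprotein lipase, was 0.527, 0.633 and 0.4998 FPKM in B6 and 1.37, 1.16 and 1.19 in C3H. It rose by 1.04 ± 0.18 (log2, SE; limma adjusted p = 0.0221). Per1, a core clock gene, was 25.1, 24.8 and 24.0 FPKM in B6 and 19.7, 19.1 and 19.9 in WSB. It fell by 0.33 ± 0.06 (SE; limma adjusted p = 0.0214). The call of Angptl4 was kept only without C3H replicate 2 and that of Per1 was lost without any 1 mouse, with adjusted p up to 0.0998 and 0.0994. Without C3H replicate 2, 2 members were called for C3H minus B6 and 2 for WSB minus C3H. Without WSB replicate 3, 2 were called for WSB minus B6 and 1 for WSB minus C3H. The most abundant members, Mt1, a metallothionein (172, 196 and 154 FPKM in B6, C3H and WSB), and Klf9, a transcription factor (49.6, 32.6 and 42.6 FPKM), passed in no comparison.

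Markers of the cell types that a cortex sample can hold were set beside Myoc. No marker of any list was at 0 in all mice of a strain. Each summed level is led by its most abundant members and would not follow a small group of cells. The 10 astrocyte markers summed to 1222 to 1314 FPKM in B6 mice, 1178 to 1190 in C3H mice and 1083 to 1138 in WSB mice. These sums stepped down without overlap in the order of the strains in Myoc, and that order rested on Glul. The other 9 markers summed to 732 to 771 FPKM in B6, 677 to 712 in the C3H mice and 728 to 755 in the WSB mice, so C3H was then the lowest and WSB overlapped B6. Limma calls were 0, 1 and 2, and the median log2 differences were -0.12, 0.02 and 0.04. For C3H minus B6, 3 had an unadjusted p under 0.05 and voom called 1. Glul, glutamine synthetase, fell by 0.49 (log2; limma adjusted p = 0.0207) against B6 and by 0.40 (limma adjusted p = 0.0415) against C3H in WSB, and its means were 529, 495 and 376 FPKM in B6, C3H and WSB. Slc4a4, a bicarbonate carrier, rose by 0.38 (limma adjusted p = 0.0359) in WSB against C3H. Aldoc, the next most abundant marker, had 310, 281 and 316 FPKM and passed in no comparison. The calls of Glul were kept only without WSB replicate 2 against B6 (adjusted p up to 0.0761) and only without C3H replicate 2 against C3H (up to 0.165), and that of Slc4a4 only without C3H replicate 2 (up to 0.136). Without C3H replicate 2, 3 markers were called for C3H minus B6. The part of the astrocyte markers in the Myoc levels was not tested.

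The 8 markers of fibrous and surface astrocytes summed to 101 to 135 FPKM in B6 mice, 131 to 159 in C3H mice and 93.1 to 100 in WSB mice. The mean sum was highest in C3H here (146 FPKM, beside 123 in B6 and 95.9 in WSB), so C3H was not the middle strain. The mice of B6 and C3H overlapped. Calls were 1, 1 and 2, and the median log2 differences were 0.18, -0.28 and -0.50. Gfap, the intermediate filament of these astrocytes, was 40.9, 67.2 and 78.3 FPKM in B6, 70.2, 82.0 and 95.1 in C3H and 48.5, 52.6 and 49.7 in WSB. The B6 mouse and the C3H mouse with the lowest Myoc were also those with the lowest Gfap of their strain. The WSB mouse with the lowest Myoc had the highest Gfap of its strain. The order of the WSB mice in Myoc rests on 4, 1 and 2 reads, whose counting intervals overlap. Gfap fell by 0.70 ± 0.11 (log2, SE; limma adjusted p = 0.0141) in WSB against C3H.

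Vim, another intermediate filament, rose by 0.46 (limma adjusted p = 0.0354) in C3H against B6 and fell by 0.72 (limma adjusted p = 0.0059) in WSB against C3H, with means of 6.78, 9.42 and 5.66 FPKM. Id3, an inhibitor of helix-loop-helix factors, fell by 0.64 (limma adjusted p = 0.0344) in WSB against B6, with means of 19.7, 18.6 and 12.7 FPKM. Fabp7, a fatty acid binding protein of glia, passed in no comparison (21.2, 21.8 and 16.3 FPKM). The call of Gfap was lost without WSB replicate 1 or WSB replicate 3 (adjusted p up to 0.0629), that of Vim against B6 was kept only without C3H replicate 2 (up to 0.138) and that of Id3 only without WSB replicate 3 (up to 0.118). Vim against C3H kept its call without any 1 mouse. The part of these markers in the Myoc levels was not tested.

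Oligodendrocyte markers, 8 in all, summed to 866 to 1087 FPKM in B6 mice, 813 to 1092 in C3H mice and 472 to 674 in WSB mice, so WSB was the lowest and B6 overlapped C3H. Limma calls were 0, 2 and 1, the median log2 differences were -0.07, -0.69 and -0.65, and all 8 markers had a negative log2 difference in WSB against each other strain. At an unadjusted p under 0.05 the counts were 0, 8 and 6, and voom called 0, 7 and 4. Mobp, a myelin protein, fell by 0.77 (limma adjusted p = 0.0402) and Cldn11, the claudin of myelin, by 0.70 (limma adjusted p = 0.0381) in WSB against B6. Mog, a surface protein of myelin, fell by 0.92 (limma adjusted p = 0.0407) in WSB against C3H. Mbp, myelin basic protein, passed in no comparison and had means of 280, 307 and 181 FPKM. The calls of Mobp and Mog were kept only without WSB replicate 1 and only without C3H replicate 2 (adjusted p up to 0.123 and 0.135), and that of Cldn11 was lost without any 1 mouse (up to 0.110). The part of these markers in the Myoc levels was not tested.

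Leptomeningeal markers, 13 in all, summed to 30.6 to 42.9 FPKM in B6 mice, 31.6 to 45.9 in C3H mice and 23.2 to 46.3 in WSB mice, and these ranges overlapped. Limma called none in any comparison, with median log2 differences of 0.05, -0.32 and -0.25. At an unadjusted p under 0.05 the counts were 1, 0 and 5, and voom called 0, 0 and 1. The most abundant were Aldh1a2, an enzyme of retinoic acid synthesis (6.96, 9.01 and 5.59 FPKM), and Slc6a13, a GABA carrier (5.09, 5.28 and 5.79 FPKM). Without WSB replicate 1, which had the highest sum of the WSB mice, 2 were called for WSB minus C3H.

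Choroid plexus markers, 8 in all, differed widely among the mice of B6 and of C3H and less among those of WSB. They summed to 67.8, 770 and 65.9 FPKM in the B6 mice, 92.9, 452 and 663 in the C3H mice and 541, 471 and 609 in the WSB mice. B6 replicate 2 stood apart from the other B6 mice. The Myoc levels of B6 replicates 1, 2 and 3 were 13.1, 20.0 and 18.5 FPKM. Those of the C3H replicates were 1.35, 2.14 and 2.41 FPKM, the same order as their choroid plexus sums. Those of the WSB replicates were 0.116, 0.0278 and 0.0528 FPKM, on 4, 1 and 2 reads, and replicate 2 was the lowest in both. Nearly all of the sum was Ttr, the thyroxine carrier (means of 291, 391 and 528 FPKM), followed by Clic6, an intracellular chloride channel protein (3.07, 3.34 and 3.42 FPKM). Limma called none of the list in any comparison (unadjusted p under 0.05 in 0, 1 and 0, voom 0 in each), and 2 for WSB minus B6 without B6 replicate 2. Its median log2 differences were 0.23, 0.42 and 0.47. Striatal markers, 5 in all and led by Penk, the enkephalin precursor (means of 189, 130 and 99.8 FPKM), also varied within strains, from 123 to 507 FPKM in B6 mice, 106 to 276 in C3H mice and 91.1 to 227 in WSB mice. Limma and voom called none of them, none had an unadjusted p under 0.05, and their median log2 differences were -0.43, -0.72 and -0.31. The B6 mouse with the highest striatal sum, replicate 1, had the lowest Myoc of its strain. In C3H the mouse with the highest striatal sum, replicate 3, had the highest Myoc of its strain. In WSB it was replicate 3, with the middle Myoc of its strain on 2 reads. The part of the choroid plexus, leptomeningeal and striatal markers in the Myoc levels was not tested.

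**Figure D4:**
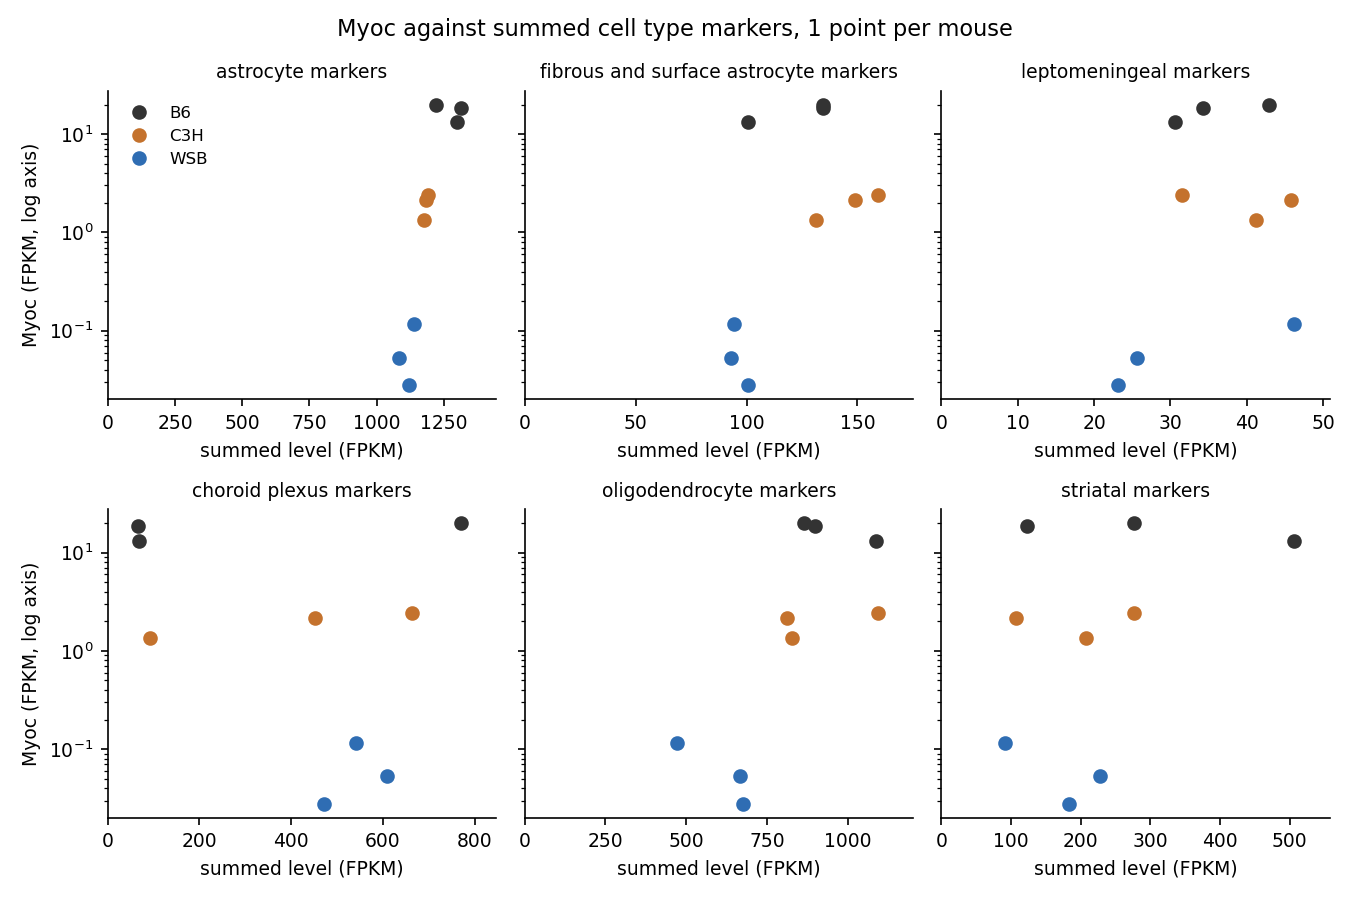
Myoc level in FPKM (log axis) against the summed FPKM of 6 marker lists (linear axis), 1 point per mouse and 1 colour per strain. The strains separate along the Myoc axis in every panel. Along the marker axis all strains overlap for leptomeningeal, choroid plexus and striatal markers. B6 and C3H alone overlap for oligodendrocyte markers and for fibrous and surface astrocyte markers. Only astrocyte markers separate all strains.

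Ependymal and mural markers had few calls, 1, 1 and 0 by limma for the former and 0, 1 and 1 for the latter. Where the count was 0, 1 marker of the list had an unadjusted p under 0.05 and voom called 0. Their median log2 differences were 0.23, 0.68 and 0.33, and -0.21, -0.26 and -0.06. Of 6 ependymal markers, Rsph1, a protein of cilia, rose by 1.16 (log2; limma adjusted p = 0.0127) in C3H against B6, with means of 4.25, 9.50 and 7.24 FPKM in B6, C3H and WSB. Rarres2, chemerin, rose by 0.77 (limma adjusted p = 0.042) in WSB against B6, with means of 1.24, 2.22 and 2.19 FPKM. Foxj1, the transcription factor of ciliated cells, passed in no comparison (3.42, 2.88 and 3.46 FPKM). Of 7 mural cell markers, Acta2, smooth muscle actin, fell by 1.01 (limma adjusted p = 0.0393) in WSB against B6, with means of 3.41, 3.17 and 1.69 FPKM. Rgs5, a pericyte gene, rose by 0.72 (limma adjusted p = 0.0233) in WSB against C3H, with means of 10.3, 7.87 and 13.1 FPKM, and Vtn, vitronectin, passed in none (30.6, 30.6 and 25.8 FPKM). The call of Rsph1 was lost without B6 replicate 3, C3H replicate 1 or C3H replicate 3 (adjusted p up to 0.0659) and that of Rarres2 without any 1 mouse (up to 0.127). That of Acta2 was kept only without WSB replicate 2 or 3 (up to 0.128), and that of Rgs5 was lost without C3H replicate 3, WSB replicate 1 or WSB replicate 3 (up to 0.0845). Of the cortical neuron markers, Snap25, a SNARE protein of synapses, had 313, 288 and 322 FPKM and Slc17a7, the vesicular glutamate carrier, 281, 329 and 265 FPKM, and 1 marker was called for WSB minus C3H without WSB replicate 1. The part of these lists in the Myoc levels was not tested.

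Likeness to Myoc was read as Pearson's r of log2(FPKM + 0.1) over the 9 mice, among 13009 genes that averaged at least 1 FPKM. These 9 points share the 3 strain levels and the libraries, so r is a description with no test. The 5 genes most like Myoc were Fcrls (r = 0.991), C1qc (0.977), Tmed2 (0.972), Edem1 (0.966) and Rps18 (0.966). Fcrls, an Fc receptor-like protein of microglia, was 14.3, 14.5 and 15.9 FPKM in B6, 5.55, 4.82 and 4.99 in C3H and 1.29, 1.04 and 0.891 in WSB. Fcrls thus had the same 3 steps as Myoc over a smaller range. C1qc, a chain of complement C1q, was 24.9 to 26.9 FPKM in B6 mice, 16.5 to 18.4 in C3H mice and 7.26 to 8.04 in WSB mice. Tmed2, a cargo receptor of the secretory pathway, was 25.5 to 27.7, 17.8 to 20.8 and 7.93 to 9.07 FPKM. Edem1, which helps to clear misfolded glycoproteins from the endoplasmic reticulum, was 3.28 to 3.56, 2.73 to 3.11 and 2.18 to 2.29 FPKM, and Rps18, a ribosomal protein gene, was 65.8 to 76.0, 51.8 to 58.0 and 25.5 to 27.0 FPKM.

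With each strain's mean subtracted, only the differences between mice of a strain remain. Dstn, an actin-depolymerising protein, was then the most like Myoc (r = 0.967), followed by Lrrc41 (0.947), E530011L22Rik (0.944), Olfml2b (0.940) and Mlx (0.931). Dstn ran from 72.0 to 79.1 FPKM in B6 and from 77.3 to 83.8 in C3H, and Mlx, a transcription factor of glucose sensing, from 14.1 to 15.8 and from 14.9 to 15.9. Olfml2b, the one olfactomedin-domain gene of the 5, was 2.08, 2.70 and 3.03 FPKM in B6, 3.04, 4.24 and 4.20 in C3H and 3.48, 2.56 and 2.97 in WSB. The WSB part of this likeness rests on 4, 1 and 2 reads of Myoc. Without C3H replicate 2 the 5 genes had r from 0.941 to 0.991.

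**Figure D5:**
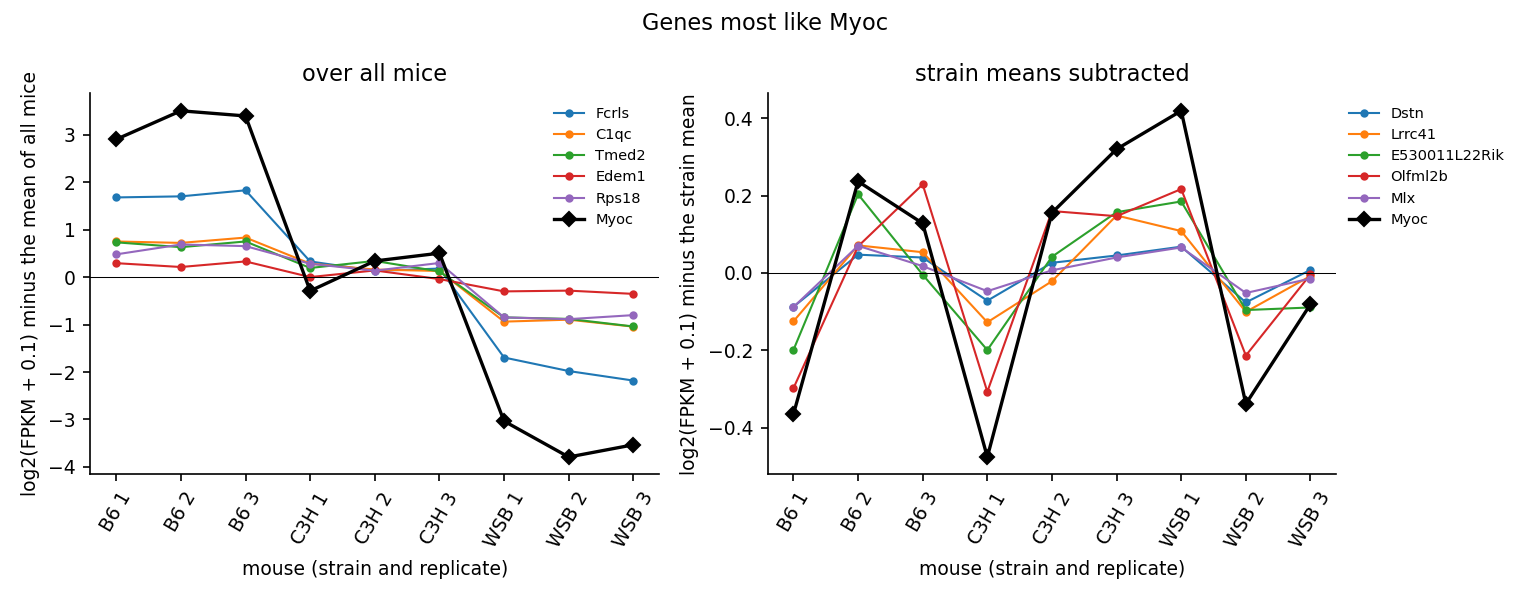
Log2(FPKM + 0.1) of Myoc (black) and of the 5 genes most like it in each mouse, on the left after subtraction of the mean of all 9 mice and on the right after subtraction of each strain mean. On the left the 5 genes step down from B6 to C3H to WSB by less than Myoc, and on the right mice of 1 strain differ by less than 1 on this scale.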

How the data were processed

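Cortex RNA was sequenced with paired-end reads in 9 males, 3 per strain (B6, C3H, WSB). The authors trimmed the reads with Cutadapt and counted them on genes with HTSeq, and their processing notes also name STAR and DESeq2, without versions. They deposited FPKM values per gene and mouse. Whether 1 genome was used for all strains, and the strand setting, are not given in the sources used here. No column of values was left unused (0 columns).

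FPKM times gene length, divided by a step estimated from the values of each library, gave whole reads in every library (tolerance 0.01). These reads were used for depth and counting intervals. Because the unit was FPKM, the DESeq2 test that the authors ran was replaced by limma 3.58.1 under R 4.3.3 (lmFit, then eBayes using its trend option, two-sided). It was run on log2(FPKM + 0.1) over the genes averaging 0.1 FPKM or more in the 6 mice of a pair of strains, with Benjamini-Hochberg adjustment over all genes tested and a threshold of 0.05. The scripts were tested on simulated data. Of 54532 identifiers, GENCODE M21 held 54495, and 53585 of them at equal coordinates. Promoters came from RefSeq (GRCm38.p6).

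Myoc and all gene lists were chosen with earlier results of these data known. Named genes were Myoc, its overlapping gene, the 5 nearest tested genes on each side, called genes within 1 Mb, all olfactomedin-domain genes, called and the 2 most abundant members of other lists, and the 5 genes most like Myoc by each measure. Of these, 2 list members are not reported here. Alternatives were pseudocounts of 1 and 0.01, other filters and scalings, 1 joint fit of the strains, no trend in eBayes, voom weights, a replicate block, and each mouse left out. The factor of the scaling by median ratios was 1.009 in every library, so that alternative could change almost nothing. Removal of the GC trend was added after seeing the data.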

Additional observations from a re-analysis of the deposited data

How the results depend on the processing

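All 33 alternative values of the Myoc log2 difference kept their sign. The mice of the strains do not overlap, so leaving out a mouse or changing the pseudocount could not reverse it. This count is therefore no support for the difference. A pseudocount of 1 gave -2.62 for C3H minus B6, -4.08 for WSB minus B6 and -1.46 for WSB minus C3H, and a pseudocount of 0.01 gave -7.99 and -4.84 for the WSB comparisons. Without 1 mouse they ran from -3.27 to -2.85, -6.93 to -6.55 and -3.88 to -3.47. The depth limits WSB, with 7 reads of Myoc in all. Of 28 called differences of named genes, 6 passed under every alternative run (Gas5 and Olfml3 in 2 comparisons each, Flot1 and Vim in WSB minus C3H). Of 474 alternative values, 309 passed and 0 reversed.

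Counts of called genes below are in the order C3H minus B6, WSB minus B6, WSB minus C3H, and the causes of the changes were not tested. Within 1 Mb (0, 1, 2), WSB minus B6 gave 0 with no filter and 2 with eBayes without a trend or voom, and WSB minus C3H gave 1 with either pseudocount, no filter or library totals and 0 at a mean of at least 1 FPKM. Without 1 mouse the 3 counts ran from 0 to 1. Within 5 Mb (5, 6, 8), eBayes without a trend gave 3 for C3H minus B6, and for WSB minus C3H a mean of at least 1 FPKM gave 4 and library totals 5. Without 1 mouse they ran from 3 to 10, 3 to 4 and 2 to 9.

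The olfactomedin list (1, 1, 1) gave 2 in C3H minus B6 and WSB minus C3H with voom, 2 in WSB minus C3H with all strains in one fit, 0 in WSB minus B6 with no filter or without a trend, and 1 to 2, 0 to 1 and 1 to 2 without 1 mouse. The partner list (1, 2, 1) gave 2, 4 and 4 with voom and 3 and 2 in the C3H comparisons after GC removal. In WSB minus B6 it gave 1 with either pseudocount, no filter or library totals and 0 without a trend, and in WSB minus C3H 2 at a mean of at least 1 FPKM and 4 with one fit. Without 1 mouse it ran from 0 to 2, 0 to 2 and 1 to 2. The glucocorticoid list (1, 1, 0) gave 2 and 2 with voom, 0 and 0 with one fit, 0 in C3H minus B6 with no filter or at 1 FPKM, 0 in WSB minus B6 without a trend, and 0 to 2 in each comparison without 1 mouse.

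Astrocyte markers (0, 1, 2) gave 1 in C3H minus B6 with one fit, voom or GC removal, 0 and 1 in the WSB comparisons with no filter, 0 and 0 without a trend, and 0 to 3, 0 to 1 and 0 to 2 without 1 mouse. Fibrous and surface astrocyte markers (1, 1, 2) gave 0, 0 and 1 without a trend, 0 in WSB minus B6 with no filter, 4 in WSB minus C3H with voom, and 0 to 1, 0 to 1 and 1 to 2 without 1 mouse. Leptomeningeal markers (0, 0, 0) gave 1 in WSB minus C3H with voom or GC removal and 0 to 2 without 1 mouse. Choroid plexus markers (0, 0, 0) gave 0 to 2 in WSB minus B6 without 1 mouse. Ependymal markers (1, 1, 0) gave 0 in WSB minus B6 with no filter or without a trend, and 0 to 1 in both B6 comparisons without 1 mouse. Oligodendrocyte markers (0, 2, 1) gave 0 and 0 in the WSB comparisons with no filter or without a trend, 4 and 2 at 1 FPKM, 4 and 4 with one fit, 7 and 4 with voom, 4 in WSB minus B6 after GC removal, and 0 to 1 without 1 mouse. Mural markers (0, 1, 1) gave 0 and 0 without a trend, 0 in WSB minus B6 with no filter or one fit, 2 and 0 after GC removal, and 0 to 1 without 1 mouse. Cortical neuron markers (0, 0, 0) gave 1 in WSB minus C3H at 1 FPKM, with library totals or voom, and 0 to 1 without 1 mouse.

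Mice with the same replicate number did not deviate together over the genes that averaged at least 1 FPKM (r from -0.157 to 0.037). What the numbers stand for is not given, and a shared effect on few genes would not be seen this way. With the replicate block the calls of the whole table were 480, 754 and 531, those within 1 Mb were 0, 0 and 0, and those within 5 Mb were 3, 3 and 2. In the same order the lists of genes gave 1, 0 and 1 (olfactomedin), 1, 1 and 2 (partners), 0, 0 and 0 (glucocorticoid), 0, 0 and 0 (astrocyte), 0, 0 and 2 (fibrous and surface astrocyte), 0, 1 and 0 (ependymal), 0, 0 and 1 (oligodendrocyte) and 0, 0 and 1 (mural). The counts of the other lists were unchanged by the block. Rarres2 in WSB minus B6 and Mog in WSB minus C3H did not pass with the block (limma adjusted p = 0.0669 and 0.0507). The ependymal and oligodendrocyte calls with the block were thus of other markers.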
